A study of Mus musculus with 6 samples.

Results

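The receptor subunits for glutamate, γ-aminobutyric acid (GABA) and glycine were examined in thalamus tissue of mice with radiation-induced brain injury that received a control virus (RC) or a NeuroD1 virus (RN). They were chosen by gene name, with earlier results of these data already known. The names cover the AMPA (Gria), NMDA (Grin), kainate (Grik), delta (Grid) and metabotropic (Grm) glutamate receptor genes. They also cover the α, β, γ and δ subunits of the GABA-A receptor, the GABA-B receptor genes and the glycine receptor genes. Of 46 genes with such names, 45 had a summed count of at least 10 over the 6 mice, out of 18782 genes with any count. The remaining gene, Grm6, had a summed count of 6. All mice were male, wild-type C57BL/6J animals bought at 8 to 10 weeks of age, and in all of them the left thalamus had been irradiated with a single dose of 50 Gy. Virus (2 µL) was injected into the thalamus 2 weeks later, and the thalamus was removed 6 weeks after the irradiation. The 3 RC mice received AAV9 GFAP104::tdTomato, which encodes only a red fluorescent protein, and the 3 RN mice received AAV9 GFAP104::mND1-tdTomato, which also encodes mouse NeuroD1, a transcription factor of neuronal differentiation. The GFAP104 promoter joins an EF1α enhancer to a short GFAP promoter to direct expression to astrocytes. The tissue was thalamus dissected from a coronal slab of the brain, from below the hippocampus, and all cell types in it were measured together. Normal control mice were not analysed here.

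Glutamate opens AMPA, NMDA and kainate channels, each a tetramer of subunits, and metabotropic receptors signal through G proteins on a slower time scale. GABA opens pentameric GABA-A channels and acts on GABA-B receptors through G proteins, and glycine opens pentameric chloride channels made of α and β subunits. The choice of subunit sets how fast a channel closes, what drugs bind it and whether it lies at the synapse or outside it. In the thalamus, relay neurons are known for δ- and α4-containing GABA-A receptors outside the synapse, and reticular neurons for α3.

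Grik3 and Grin2c are the subunits whose promoters are shown, since they had the smallest unadjusted p on the higher and on the lower side of the comparison. The sequences are from RefSeq (GRCm38.p6), span 250 bases before to 50 bases after the start of the transcript and are written on the gene's strand. Capitals mark the E-box CANNTG, the word bound by basic helix-loop-helix factors such as NeuroD1, searched on both strands (the pattern reads the same on both). The Grik3 window lies at chr4:125490446-125490745 on the plus strand and has a GC content of 82%, and the Grin2c window lies at chr11:115267194-115267493 on the minus strand and has a GC content of 70%.
Grik3: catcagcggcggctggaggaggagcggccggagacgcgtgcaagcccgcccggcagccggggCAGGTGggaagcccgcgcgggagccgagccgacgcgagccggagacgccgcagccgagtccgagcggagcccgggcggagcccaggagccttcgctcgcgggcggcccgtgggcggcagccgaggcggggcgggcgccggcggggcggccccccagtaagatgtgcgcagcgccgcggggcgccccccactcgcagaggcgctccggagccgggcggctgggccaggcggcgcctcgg
Grin2c: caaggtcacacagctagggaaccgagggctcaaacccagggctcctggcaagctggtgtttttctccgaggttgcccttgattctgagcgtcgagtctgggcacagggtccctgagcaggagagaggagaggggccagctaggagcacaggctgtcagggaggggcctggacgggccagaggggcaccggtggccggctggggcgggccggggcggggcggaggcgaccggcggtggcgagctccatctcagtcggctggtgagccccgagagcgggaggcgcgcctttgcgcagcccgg
The Grik3 window holds 1 E-box, CAGGTG, starting 188 bases before the start site. The Grin2c window holds 0. Over the 36 windows that the table gives for 29 of the subunit genes, 15 windows (41.7%) held CANNTG, against 72.3% of all 32851 promoter windows of the same length. The form CAGATG (or CATCTG on the other strand) stood in 2 of the 36 windows (5.56%, against 17.2% of all), those of Gabra5 and Grin3b, and CAGCTG in 1 (2.78%, against 16.3%), that of Glra3. These 2 forms are included in CANNTG. A match is a word in the sequence and not a measured binding site.

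The authors deposited whole-number read counts per gene. Library totals lay between 16561663 and 18657015, and a count of 0 in a library allows up to 3 counts, or 0.160 to 0.179 CPM (counts scaled to library size), a limit that covers counting error only. Neurod1, the transgene of RN, was counted 84, 91 and 90 times in RC replicates 1, 2 and 3 and 1123, 1711 and 910 times in RN (log2 fold change 3.77, SE 0.227, adjusted p = 0.00178 by edgeR's quasi-likelihood test), and no mouse went against its label. The counts do not separate viral from mouse Neurod1. Several marker lists, chosen with earlier results of these data known, moved with the groups or with single mice. Summed CPM over 8 astrocyte markers was 4959 to 6269 in RC and 3475 to 4526 in RN, with 8 of 8 lower in RN and 5 of them at an unadjusted p under 0.05. Over 12 hypothalamus markers it was 38.5 to 228 in RC and 311 to 477 in RN, with all 10 tested markers higher and 7 at that level. Over 7 choroid plexus markers it was 310 to 8257 in RC and 55.4 to 132 in RN, with 7 of 7 lower at that level. Over 8 markers of thalamic relay neurons it was 843 to 1781 in RC and 608 to 1195 in RN, with 8 of 8 lower in RN and 0 at that level, and 10 of 10 general neuron markers were higher with 0 at that level. Of the other lists, those of reticular and other GABA neurons (3 of 7 higher and 1 lower), habenula (2 of 7 higher), hippocampus and cortex (2 of 8 tested higher), endothelium (2 of 5 lower) and oligodendrocytes (1 of 6 lower) had members at that level, and those of oligodendrocyte precursors and microglia had 0. Over all tested genes, 5.44% were higher and 6.33% lower at that level. Each of the markers of the first 5 lists was detected in at least some mice of both groups. Agrp, a hypothalamus marker, was at 0 in RC replicate 1.

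None of the receptor subunits passed the test. edgeR fitted 43 of the 45 genes, after Gabra6 and Glra4 were removed for low counts, and 0 of the 43 were called higher or lower in RN at an adjusted p under 0.05 with a fold change of at least 2. Over all 14956 tested genes the same rule called 0.0602% higher and 0.0134% lower, so few calls were made anywhere. At an unadjusted p under 0.05, 2 subunits were higher in RN (Grik3 among them; 4.65% of those tested, against 5.44% of all tested genes) and 1 was lower (Grin2c; 2.33%, against 6.33%). Every RN mouse lay above every RC mouse for 2 subunits (Grik3 among them; all tested genes, 8.18%) and below for 2 (Grin2a and Grin2c; all tested genes, 8.12%). These shares lie below those of all tested genes. With DESeq2, the tool that the study's methods name, 0 subunits passed both thresholds (1.14% of 16250 genes did), and Grik3 alone passed the adjusted p without the fold threshold (adjusted p = 0.0407; 2.92% of genes did). In bulk tissue, fewer cells of a type and less RNA per cell cannot be told apart.

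The precision was enough to bound most of the differences. For 41 of the 43 tested subunits, the 95% interval of the log2 fold change lay wholly within a 2-fold change in either direction. The exceptions were Gabrd, whose interval ran from -1.40 to 0.21, and Grin3b, whose interval ran from -0.73 to 1.44. Intervals for 3 subunits left out 0, Grik3 and Grin2c among them. As a group, the subunits had a median log2 fold change of 0.11, with 28 above 0 and 15 below (65.1% above), while all tested genes had a median of 0.0037 with 50.8% above 0. General neuron markers had a median of 0.14 (10 of 10 above 0). Receptor assembly and trafficking genes had 0.089 (16 of 22 above 0) and postsynaptic scaffold genes -0.017 (10 of 21). The subunits were measured in the same mice and are not independent.

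**Figure D1:**
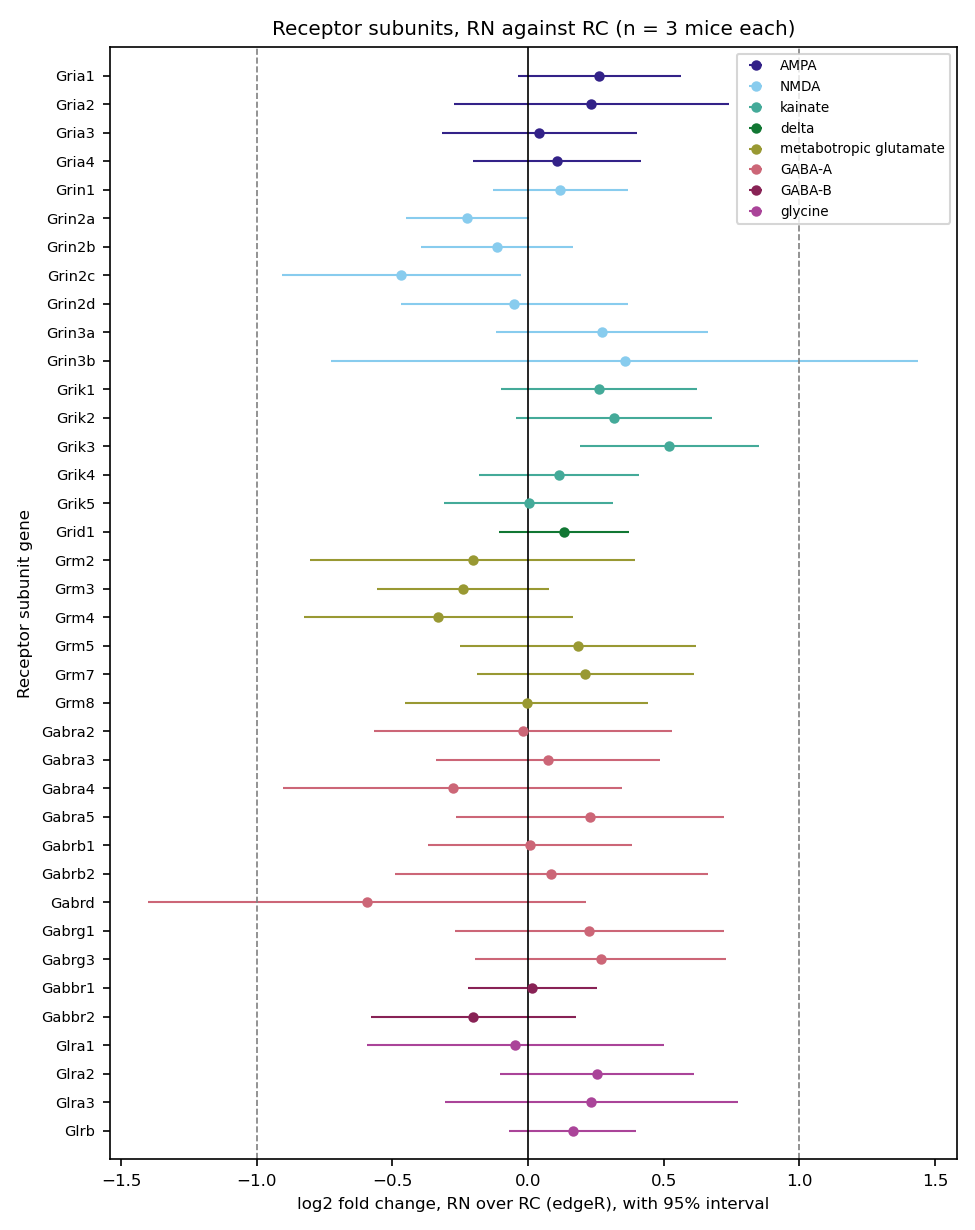
Log2 fold change (horizontal axis) of RN over RC for 38 of the 43 tested receptor subunits (vertical axis), coloured by receptor class. Points are edgeR estimates from 3 mice per group, bars are 95% intervals, and dashed lines mark a 2-fold change; of the bars drawn, only those of Grik3 and Grin2c leave out 0, and only those of Gabrd and Grin3b cross a dashed line.

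AMPA receptors carry most fast excitation. Gria1, which encodes the subunit GluA1, had the highest level of the 4 per kilobase of exon. In CPM it had 271, 355 and 276 CPM in RC replicates 1, 2 and 3 and 371, 316 and 395 in RN. The RN mean was the higher, but RN replicate 2 lay below RC replicate 2, and the log2 fold change was 0.26 (SE 0.131, adjusted p = 0.498). Gria2, whose edited product makes the channel impermeable to calcium, had 98.6, 81.5 and 95.5 CPM in RC and 134, 69.2 and 121 in RN, which gave 0.23 (SE 0.22) on the log2 scale. RN replicate 2 was the lowest of all 6 mice for Gria2, while RN replicates 1 and 3 were the highest. Gria3 (46.7 ± 7.99 CPM in RC and 48.1 ± 7.74 in RN, mean ± SD, n = 3) and Gria4 (67.4 ± 10.6 and 72.6 ± 7.59) differed by less than their spread. All 4 had a fold change above 0, with a median log2 value of 0.17. Measured as CPM per kilobase, the scale used here to rank genes by level and to give shares of a family, Gria1 made up 66.1% to 76.4% of AMPA subunit transcript in the 6 mice and Gria2 6.25% to 9.72%. The length joins all annotated exons of a gene (6.04 kb for Gria1, 15.5 kb for Gria2), so ranks and shares depend on the annotation. Log2 ratios between genes are of CPM without a length correction and are compared only between mice. That of Gria1 to Gria2 was 1.46, 2.12 and 1.53 in RC and 1.47, 2.19 and 1.70 in RN, so the groups overlapped and replicate 2 was the highest in each.

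NMDA receptors pair the obligatory subunit GluN1, encoded by Grin1, with GluN2 or GluN3 subunits. Grin1 had 262, 273 and 320 CPM in RC and 279.7, 313 and 336 in RN, which gave 0.12 (SE 0.108) on the log2 scale with overlapping groups. The lowest fold changes of the class were those of GluN2 genes. Grin2c (ENSMUSG00000020734), whose subunit has a low magnesium block and which in the forebrain is known from thalamus and astrocytes, had 25.4, 27.0 and 38.2 CPM in RC and 17.7, 23.0 and 24.8 in RN. All RN mice lay below all RC mice, RN replicate 3 and RC replicate 1 nearly meeting, and RC replicate 3 stood well above the others. Fitted by edgeR, the log2 fold change was -0.47 (SE 0.191, 95% interval -0.91 to -0.03, unadjusted p = 0.0398, adjusted p = 0.39). Without RC replicate 3 the value was -0.26 and the unadjusted p 0.164, and the other fits that left out 1 mouse gave -0.58 to -0.34. The hypothalamus and choroid plexus marker scores did not overlap between RC and RN. Here and below, a fit with either as a covariate cannot separate score from group. With marker scores as covariates the log2 fold change of Grin2c was -0.70 (neuron, unadjusted p = 0.00724), -0.81 (choroid plexus, 0.0130), -0.40 (thalamic relay neuron, 0.124) and, with the sign turned, 0.15 (hypothalamus, 0.555). With the replicate number as a block it was -0.46 (unadjusted p = 0.00757, adjusted p = 0.177). Grin2a, the main GluN2 gene of mature forebrain, had 42.01, 50.02 and 48.23 CPM in RC and 41.58, 37.96 and 40.54 in RN. The groups did not overlap, though RC replicate 1 and RN replicate 1 were nearly equal, and the log2 fold change was -0.22 (SE 0.0989, unadjusted p = 0.0526, adjusted p = 0.43).

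Grin2b, the GluN2 gene that dominates early in development, had 112, 114 and 133 CPM in RC and 113, 94.1 and 124 in RN, which gave -0.12 (SE 0.122) on the log2 scale. The log2 ratio of Grin2b to Grin2a, which falls as forebrain synapses mature, was 1.42, 1.18 and 1.46 in RC and 1.44, 1.31 and 1.62 in RN. These ratios overlapped, with a difference of 0.10 against an SD of about 0.15 in each group. Grin2d (34.8 ± 8.77 CPM in RC and 33.6 ± 2.67 in RN) showed no difference beyond its spread, and Grin3a, a GluN3 gene, had 68.5 ± 15.2 and 82.8 ± 10.8 CPM. Grin3b was the only tested subunit near 1 CPM (0.825 ± 0.33 and 1.05 ± 0.401), and 32.1% of its exon bases are shared with Tmem259 on the opposite strand, so its counts are uncertain. Antisense genes also share 13.5% of the exon bases of Grin1, 9.66% of those of Grin2d and 9.60% of those of the metabotropic receptor gene Grm2, and without strand these reads cannot be told apart. Per kilobase, Grin2c took 9.79%, 10.9% and 12.4% of NMDA subunit transcript in RC and 6.66%, 8.45% and 8.44% in RN, and Grin1 took 52.3% to 59.7% over all mice. The share of Grin2c among the GluN2 genes alone overlapped between groups (28.6%, 32.6% and 34.7% in RC, 22.1%, 29.8% and 29.0% in RN). The median log2 fold change of the 7 NMDA genes was -0.05.

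**Figure D2:**
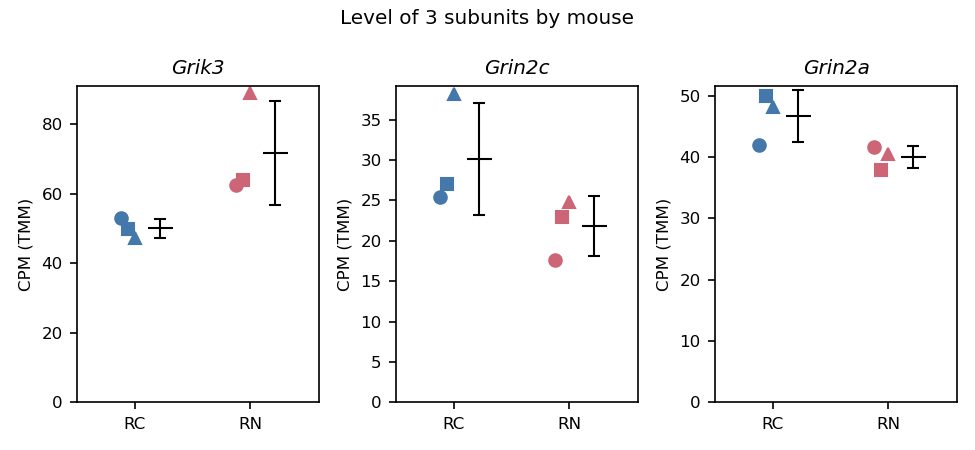
CPM (vertical axis, from 0) of Grik3, Grin2c and Grin2a, whose RC and RN mice did not overlap. Circles, squares and triangles are replicates 1, 2 and 3, and black marks show mean ± SD (n = 3); Grik3 was higher in all RN mice and Grin2c and Grin2a lower, with gaps between groups that are small for Grin2a and Grin2c.

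Kainate receptors modulate transmitter release and excitability, and their subunit genes held the largest upward difference among the 43 tested subunits. Grik3 (ENSMUSG00000001985), encoding GluK3, a subunit with low affinity for glutamate, had 52.9, 49.8 and 47.4 CPM in RC and 62.5, 64.0 and 89.0 in RN. All RN mice lay above all RC mice, with RN replicate 3 far above the other RN mice. The RN mean was 1.43 times the RC mean, a log2 fold change of 0.52 (SE 0.143, 95% interval 0.19 to 0.85, unadjusted p = 0.00644, adjusted p = 0.197). Leaving out each mouse in turn gave 0.34 to 0.61, lowest without RN replicate 3, and the unadjusted p stayed under 0.05 in each of these 6 fits. With marker scores as covariates the value was 0.54 (neuron), 0.57 (hypothalamus), 0.61 (choroid plexus) and 0.37 (thalamic relay neuron), with unadjusted p of 0.0274, 0.0726, 0.0368 and 0.0291. Grik2 had 36.8, 27.3 and 32.9 CPM in RC and 44.8, 32.7 and 43.3 in RN, which gave 0.32 (SE 0.157) on the log2 scale with an overlap by RN replicate 2. Grik5, an auxiliary high-affinity subunit and the highest of the 5 per kilobase, had 86.5, 119 and 95.2 CPM in RC and 93.8, 93.9 and 113 in RN, which gave 0.0016 (SE 0.135) on the log2 scale. Grik1 (14.5 ± 1.1 and 17.4 ± 2.95 CPM) and Grik4 (23.7 ± 3.34 and 25.6 ± 1.03) differed by less than the larger of the group SDs.

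The kainate genes had a median log2 fold change of 0.26, with all 5 above 0, and Grik5 only just. Within the family, per kilobase, Grik3 took 18.8%, 14.8% and 16.7% of the transcript in RC and 19.3%, 20.7% and 23.8% in RN. Grik5 took 53.4%, 61.3% and 58.0% in RC and 50.4%, 52.9% and 52.5% in RN. Neither share overlapped between the groups, and no test was run on shares. Shares of a family add up to a fixed whole, so they are not independent, and Grik5 itself had a log2 fold change of 0.0016. In other families the Grm7 share (10.1% to 11.2% in RC, 11.6% to 15.0% in RN) and the NMDA family shares of Grin2a and Grin2c also did not overlap. For Grin2a the groups nearly met (lowest RC mouse 4.412%, highest RN mouse 4.405%), and its share among the GluN2 genes alone overlapped.

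**Figure D3:**
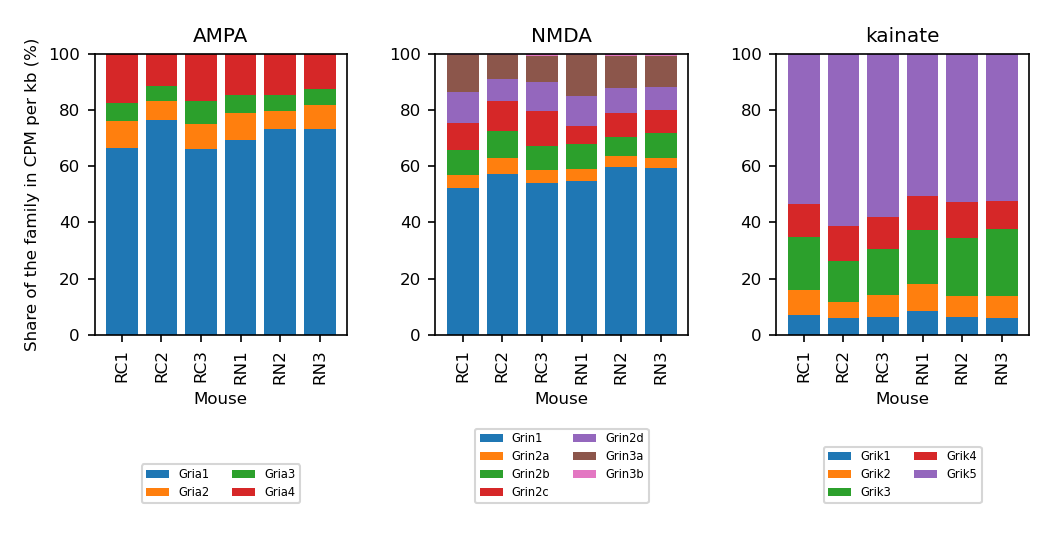
Share (vertical axis, percent of CPM per kilobase) of each subunit in the AMPA, NMDA and kainate families, by mouse. The Grik3 share was 14.8% to 18.8% in RC and 19.3% to 23.8% in RN, while each AMPA share overlapped between the groups.

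Delta receptors bind cerebellins and organise synapses rather than carry glutamate currents. Grid1 had 53.1, 50.4 and 52.2 CPM in RC and 61.3, 49.2 and 60.1 in RN, which gave 0.13 (SE 0.104) on the log2 scale, with RN replicate 2 the lowest of the 6 mice.

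Metabotropic glutamate receptors were the class with the lowest median log2 fold change, -0.21, with 5 of 7 below 0. Single mice carried this median: it was -0.0012 without RC replicate 1, -0.016 without RC replicate 3 and -0.031 without RN replicate 3. Grm4, a Gi-coupled presynaptic receptor, had 62.1, 41.1 and 82.2 CPM in RC and 49.2, 46.9 and 51.3 in RN, at a log2 fold change of -0.33 (SE 0.216). For this gene RC replicate 3 was the highest and RC replicate 2 the lowest of the 6 mice, and the RN mice lay between them. The log2 fold change was -0.07 without RC replicate 3 and -0.55 (unadjusted p = 0.00337, adjusted p = 0.223) without RC replicate 2. With marker scores as covariates it was -0.69 (neuron), -0.97 (choroid plexus, unadjusted p = 0.000387, adjusted p = 0.130), -0.08 (thalamic relay neuron) and 0.17 (hypothalamus). Grm5, a Gq-coupled receptor, had 63.8, 58.6 and 59.8 CPM in RC and 78.5, 47.2 and 81.3 in RN, at a log2 fold change of 0.18 (SE 0.189), with RN replicate 2 apart from the other RN mice. Grm3, a Gi-coupled receptor that astrocytes express, had 23.7, 30.1 and 32.1 CPM in RC and 22.6, 24.1 and 26.0 in RN, at a log2 fold change of -0.24 (SE 0.138, adjusted p = 0.578). Grm2 (31.9 ± 10.0 and 27.7 ± 6.94 CPM), Grm7 (32.1 ± 4.77 and 37.2 ± 7.67) and Grm8 (9.14 ± 1.59 and 9.12 ± 1.51) differed by less than the larger of the group SDs.

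GABA-A receptor subunits formed the largest class, with 13 genes, and 0 of the 12 tested reached an unadjusted p under 0.05. Gabrd, the δ subunit of receptors outside the synapse, had 29.7, 39.9 and 82.4 CPM in RC and 31.1, 27.3 and 42.4 in RN. Its low RN mean came with a single high RC mouse: the log2 fold change was -0.59 (SE 0.351, unadjusted p = 0.129, adjusted p = 0.593), and -0.05 without RC replicate 3. Gabra4, the usual partner of δ in the thalamus, was also highest in that mouse, with 93.1, 72.1 and 167 CPM in RC and 96.3, 95.7 and 82.3 in RN, which gave -0.28 (SE 0.272) on the log2 scale, and 0.15 without RC replicate 3.

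The group means differed by less than the larger of the group SDs for Gabra3 (98.4 ± 24.5 CPM in RC and 104 ± 10.4 in RN), Gabrb1 (97.2 ± 16.1 and 97.7 ± 18.3) and Gabrb2 (46.5 ± 15.4 and 49.4 ± 10.4), and likewise for Gabra5 (31.1 ± 9.55 and 36.4 ± 4.39), Gabra2 (16.6 ± 3.07 and 16.4 ± 4.79), Gabrg1 (33.7 ± 9.1 and 39.4 ± 7.47) and Gabrg3 (21.9 ± 3.55 and 26.3 ± 6.27). Gabra6, a subunit of cerebellar granule cells, was close to the detection limit, with at most 0.687 CPM in RC and 1.17 in RN. Per kilobase, Gabra3 made up 24.6% to 30.1% of α subunit transcript over the 6 mice, and Gabra2 1.74% to 3.00%. The median log2 fold change of the tested GABA-A genes was 0.08, and -0.12 without RC replicate 2.

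GABA-B receptors are obligate dimers of the products of Gabbr1 and Gabbr2. Gabbr1 was the most abundant receptor transcript of all 45, at 115 CPM per kilobase, followed by Gria1 (54.7), Gabbr2 (45.1), Glrb (39.8) and, with lower levels, Grin1 (30.6). In CPM, Gabbr1 had 892, 770 and 994 in RC and 922, 846 and 918 in RN, which gave 0.02 (SE 0.104, 95% interval -0.22 to 0.25) on the log2 scale. Gabbr2 had 338, 252 and 379 CPM in RC and 317, 289 and 236 in RN, at a log2 fold change of -0.20 (SE 0.164), with overlapping groups.

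Glycine receptors were led by Glrb, the β subunit that anchors the channel to gephyrin, with 183, 152 and 189 CPM in RC and 205, 194 and 188 in RN. Fitted by edgeR, the log2 fold change was 0.16 (SE 0.101, adjusted p = 0.613), and the groups overlapped by RN replicate 3 alone. Glra2, the α subunit known from immature neurons, had 26.7, 22.3 and 23.7 CPM in RC and 32.5, 22.8 and 31.4 in RN, at a log2 fold change of 0.25 (SE 0.156), with RN replicate 2 inside the RC range. Glra1, the α subunit of adult spinal cord and brainstem, had 6.88 ± 2.03 CPM in RC and 6.66 ± 0.659 in RN, and Glra3 had 15.7 ± 4.62 and 18.5 ± 3.14. Glra4 was counted 4, 1 and 0 times in RC and 14, 3 and 13 times in RN, so that RC and RN replicate 2 were at or near the limit of a count of 0 while RN replicates 1 and 3 lay above it. The filter on low counts removed it from the edgeR fit. DESeq2, which kept it, gave a log2 fold change of 2.59 (SE 1.28, unadjusted p = 0.0423, adjusted p = 0.419). Without the filter, edgeR gave 2.49 (SE 1.02, unadjusted p = 0.0357, adjusted p = 0.425). The log2 ratio of Glra2 to Glra1 was 1.57, 1.72 and 2.26 in RC and 2.44, 1.64 and 2.24 in RN, and overlapped. The median log2 fold change of the 4 tested glycine receptor genes was 0.20.

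Much of the variation among these genes was between mice of a group. RC replicate 2 had the lowest value of the 6 mice in 21 of the 43 tested subunits, including 8 of the 12 GABA-A genes, and RC replicate 3 had the highest in 12. RN replicate 1 was highest in 17, and RN replicate 2 was lowest in 9. Within-group spread was widest in Gabrd, then Grin3b, Gabra4, Grm2 and Gabrb2, and narrowest in Grin2a, Grid1, Glrb, Gabbr1 and Grin1. Gabrd, Gabra4, Grm4 and Grin2c were among the 12 subunits highest in RC replicate 3. That mouse also had the highest score for thalamic relay neuron markers (0.83, against 0.17 and -0.31 in the other RC mice and 0.14, -0.04 and -0.79 in RN; mean centred log2 CPM of the list) and the lowest for hypothalamus markers (-2.20, against -0.06 and -0.74 in RC and 1.20, 1.24 and 0.56 in RN). Among the RN mice, replicate 3 had the lowest relay neuron score and the lowest Gabra4, but the highest Gabrd, Grm4 and Grin2c. With a marker score added to the fit, the direction and size of Gabra4 and Gabrd depended on the list. The hypothalamus and choroid plexus scores did not overlap between the groups, so fits with them cannot separate score from group. The log2 fold change of Gabra4 was 0.15 with the relay neuron score, 0.56 with the hypothalamus score, -0.72 (unadjusted p = 0.0018, adjusted p = 0.157) with the neuron score and -1.09 (unadjusted p = 6.29e-05, adjusted p = 0.110) with the choroid plexus score. That of Gabrd was -0.35, 0.94 (unadjusted p = 0.000879, adjusted p = 0.518), -1.13 (0.0015 and 0.146) and -1.33 (0.0074 and 0.311) in the same order. Their part in these values was not tested further. RC replicate 2 had the highest choroid plexus score (3.23, against 1.79 and -0.71 in RC and -1.66 to -1.30 in RN) and the lowest neuron score (-0.17, against -0.12 and 0.10 in RC and 0.03 to 0.09 in RN).

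**Figure D4:**
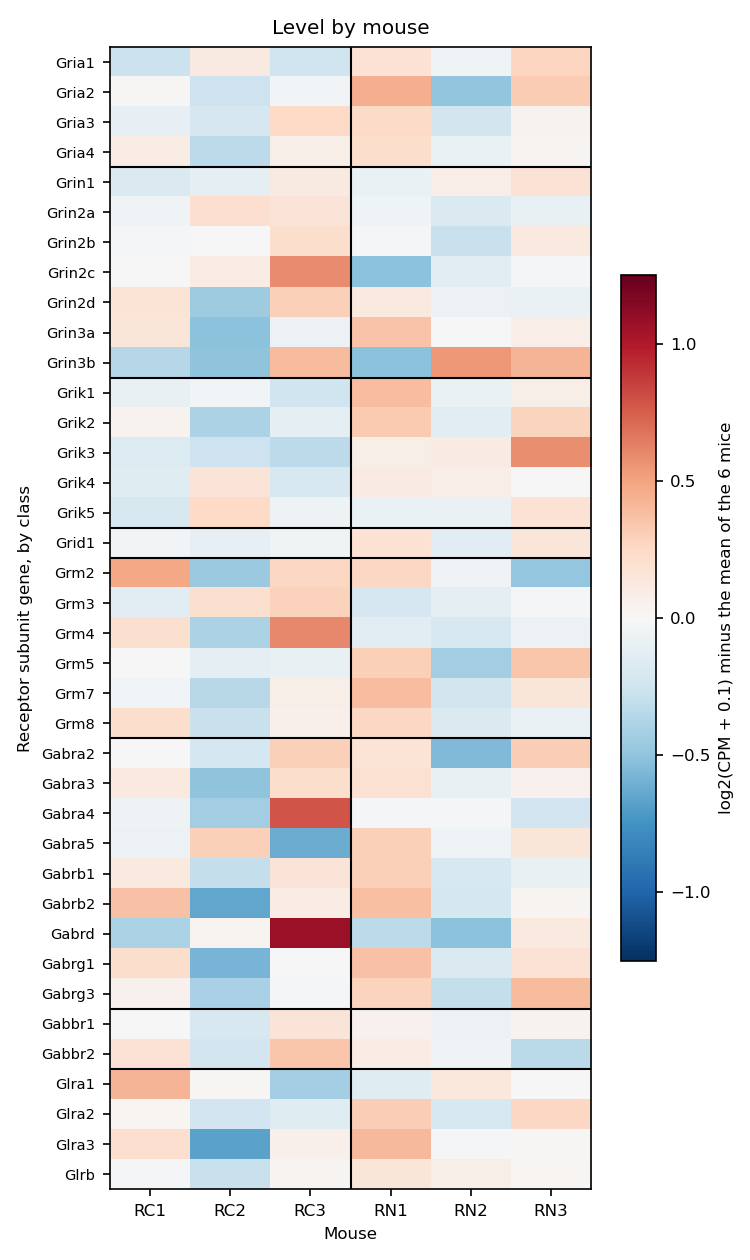
Level of 38 of the 43 tested subunits (rows, grouped by class) in each mouse (columns), as log2(CPM + 0.1) minus the mean of the 6 mice. RC replicate 2 is lowest in 17 of these rows and RC replicate 3 highest in 11, and the deepest red stands at Gabrd and Gabra4 in RC replicate 3.

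**Figure D5:**
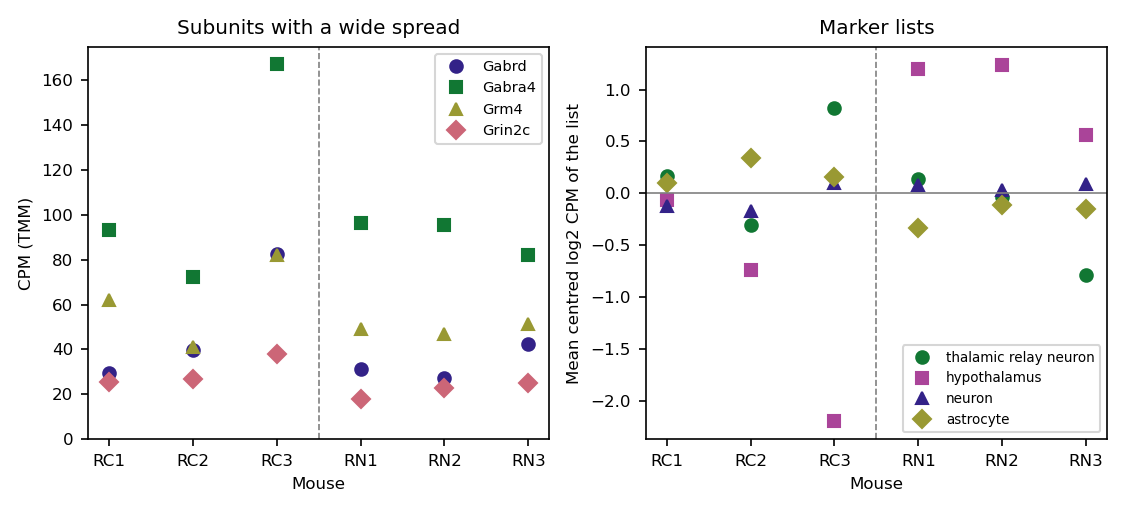
Left, CPM (vertical axis, from 0) of Gabrd, Gabra4, Grm4 and Grin2c in each mouse; right, the mean centred log2 CPM of 4 marker lists in the same mice. RC replicate 3 is highest for the 4 genes and for the relay neuron list (0.83), and lowest for the hypothalamus list (-2.20). Among the RN mice, replicate 3 is lowest for the relay neuron list and for Gabra4, but highest for Gabrd, Grm4 and Grin2c.

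Single mice set the count of subunits at an unadjusted p under 0.05. Without RN replicate 2, 10 of the 45 subunits then tested were higher in RN at that level (Grm5, Gria2, Grik3, Glra4, Glra2, Grik2, Gabrg3 and Gria1 among them; 22.2%, against 4.32% of all genes tested in that fit), while 0 were lower (6.14% of all). In the same fit 13 had each remaining RN mouse above every RC mouse (28.9%, against 12.7% of all, a share that is larger with 2 mice in a group). Without RC replicate 2, 4 were higher and 4 lower (8.89% each, against 5.05% and 5.55% of all). Without RC replicate 1, 5 were higher (11.1%, against 6.72%) and 4 lower (8.89%, against 6.81%). Without RC replicate 3, 2 were higher and 0 lower (4% and 6.52% of all), and the same counts were found without RN replicate 1 (5.12% and 4.91% of all). A block on the replicate number assumes that mice of the same number are pairs, which no source states. With this block, 5 were higher (Grik3, Grik2, Grin3a and Gabrg1 among them, 11.6% against 6.63% of all). There were 2 lower (Grin2c and Gabrd, 4.65% against 6.97%), and the smallest adjusted p of any subunit by edgeR was 0.119. Grik3 was in each of these sets.

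Proteins that assemble, traffic and cluster these receptors were read from lists of their own. Of 22 assembly and trafficking genes, 16 had a fold change above 0 and 6 below, and 0 were called by edgeR. At an unadjusted p under 0.05, 2 were higher and 1 lower (5.44% and 6.33% of all tested genes). Cacng5, an auxiliary subunit of AMPA receptors, had 43.0, 32.5 and 47.9 CPM in RC and 74.1, 77.4 and 50.3 in RN, which gave 0.71 (SE 0.194, adjusted p = 0.193) on the log2 scale. Lhfpl4, which carries GABA-A receptors to inhibitory synapses, had 107, 99.6 and 97.1 CPM in RC and 116, 117 and 127 in RN, at a log2 fold change of 0.25 (SE 0.0836, adjusted p = 0.288). Shisa6, another AMPA auxiliary subunit, had 34.7, 43.0 and 36.9 CPM in RC and 27.9, 34.1 and 24.5 in RN, at a log2 fold change of -0.41 (SE 0.145, adjusted p = 0.315). The groups did not overlap in any of these 3 genes (all tested genes, 8.18% higher and 8.12% lower without overlap). With DESeq2, Cacng5 passed the adjusted p (0.018) but not the fold threshold, and 0 genes of the list were called. With marker scores as covariates in edgeR, its log2 fold change was 0.56 (neuron), 0.75 (hypothalamus), 0.32 (choroid plexus) and 0.96 (thalamic relay neuron). The last had an adjusted p of 0.0442, below the fold threshold.

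Of 21 postsynaptic scaffold genes, 10 lay above 0 and 11 below, and 0 were called by edgeR or DESeq2. At an unadjusted p under 0.05 by edgeR, 2 were higher and 2 lower (5.44% and 6.33% of all tested genes). Nlgn2, the neuroligin of inhibitory synapses, had 174, 168 and 155 CPM in RC and 195, 195 and 226 in RN, which gave 0.31 (SE 0.093, adjusted p = 0.228) on the log2 scale. Grip1, which binds AMPA receptor tails, was at a log2 fold change of 0.43 (SE 0.155, adjusted p = 0.323), with 8.55 to 8.88 CPM in RC and 9.95 to 12.9 in RN. Shank3, a master scaffold of excitatory synapses, had 200.2, 201 and 345 CPM in RC and 153, 133 and 169 in RN, at a log2 fold change of -0.72 (SE 0.214, adjusted p = 0.221), and the value was -0.41 at its smallest when a mouse was left out. DESeq2 gave it an adjusted p of 0.0209, below the fold threshold. It was 0.11 with the hypothalamus score as a covariate and -1.10 with the neuron score, where the adjusted p was 0.0452. Dlgap1, a partner of both PSD-95 and Shank proteins, was at a log2 fold change of -0.32 (SE 0.128), with groups that overlapped.

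Transmitter synthesis and transport genes had a log2 fold change below 0 for 12 of 17 and above 0 for 5. edgeR called 0 of them and DESeq2 called 1, Slc6a5, by the same thresholds (DESeq2 called 1.14% of 16250 genes). Of the 5 with an unadjusted p under 0.05 by edgeR, 3 were lower in RN and 2 higher. Over all tested genes, 5.44% were higher and 6.33% lower at that level. Slc6a11, the GABA transporter GAT-3 of astrocytes, had 806, 811 and 760 CPM in RC and 602, 669 and 565 in RN, which gave -0.37 (SE 0.0865, adjusted p = 0.138) on the log2 scale. Slc6a9, the glycine transporter GlyT1, which astrocytes also express, had 129, 151 and 139 CPM in RC and 106, 117 and 92.3 in RN, at a log2 fold change of -0.41 (SE 0.11, adjusted p = 0.189). Glul, the glutamine synthetase of astrocytes, was at a log2 fold change of -0.35 (SE 0.115, adjusted p = 0.266), with 1422 to 1857 CPM in RC and 1166 to 1282 in RN. All RN mice lay below all RC mice for these 3, as they did for 8.12% of all tested genes. DESeq2 gave Slc6a11 and Slc6a9 adjusted p of 0.0113 and 0.0457, below the fold threshold, and Glul 0.129. The astrocyte marker score was 0.10, 0.34 and 0.16 in RC and -0.34, -0.11 and -0.15 in RN, and the part of astrocyte number in these values was not tested. On the higher side, Gad2, the synthetic enzyme of GABA, had 233, 213 and 245 CPM in RC and 332, 241 and 404 in RN, at a log2 fold change of 0.50 (SE 0.171, adjusted p = 0.293). Slc6a5, the neuronal glycine transporter GlyT2, had 1.40, 2.15 and 1.55 CPM in RC and 2.74, 14.9 and 6.77 in RN, at a log2 fold change of 2.26 (SE 0.567, adjusted p = 0.165), with a wide range within RN. DESeq2 gave Slc6a5 an adjusted p of 0.00146, past the fold threshold as well.

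Outside the 45, the minor GABA-A subunits Gabre and Gabrq had larger fold changes than any of the 43 tested subunits. Glra4, removed from the edgeR fit for low counts, is not part of this comparison. Gabre, the ε subunit, had 6.67, 3.11 and 3.27 CPM in RC and 12.7, 16.0 and 16.3 in RN, which gave 1.78 (SE 0.298, adjusted p = 0.0743) on the log2 scale. Gabrq, the θ subunit, had 24.5, 7.71 and 11.1 CPM in RC and 40.7, 31.7 and 38.2 in RN, at a log2 fold change of 1.35 (SE 0.368, adjusted p = 0.191). The groups did not overlap in either gene (8.18% of all tested genes were higher without overlap). Neither was called by edgeR, and DESeq2 called both (adjusted p of 2.21e-06 and 0.00303), as it did 1.14% of 16250 genes. Both subunits are known from the hypothalamus and brainstem, and in these libraries all 10 tested hypothalamus markers were higher in RN. With marker scores as covariates the log2 fold change of Gabre was 1.16 (hypothalamus, unadjusted p = 0.0414, adjusted p = 0.636), 2.02 (neuron), 1.96 (choroid plexus) and 1.70 (thalamic relay neuron). That of Gabrq was 0.64 (hypothalamus, unadjusted p = 0.296, adjusted p = 0.868), 1.48, 1.27 and 1.39 in the same order. The hypothalamus score did not overlap between the groups, so its fit cannot separate score from group. The part of hypothalamic tissue in these values was not tested further. Of the other 4 genes of this list, Gabrr2 was tested (18 to 23 counts in RC, 18 to 38 in RN) and Gabrp, Gabrr1 and Gabrr3 had too few counts.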

How the data were processed

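Bulk thalamus RNA was sequenced from 3 mice in each of the groups RC and RN. The values deposited by the authors are unnormalized read counts per gene, all whole numbers. The submitters' processing notes name fastp 0.18.0, FastQC, HISAT2, RSEM 1.2.19 and GRCm39, with no role or order; RSEM gives estimated counts, so how the whole numbers arose is not given in the sources used here, nor is how reads shared between genes were assigned. The kit (NEBNext Ultra RNA) does not mark strand.

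Low genes were removed with filterByExpr of edgeR 4.0.16 (R 4.3.3, minimum count 10). After TMM normalization, group was tested with edgeR's quasi-likelihood test. P-values were adjusted by the Benjamini-Hochberg method over 14956 tested genes; a call needed an adjusted p under 0.05 together with a change of 2-fold or more, as in the study's methods. The coefficient of variation between mice was 17.4%. Fitted fold changes used a prior count of 0.125 and marker scores log2 CPM with a prior count of 2. The script was tested on simulated counts. Exon lengths (45 of 45 subunits) and exon overlaps came from GENCODE M21 and promoters from RefSeq, both GRCm38, and no coordinate was carried to GRCm39. DESeq2 1.42.0, limma 3.58.1, Python 3.11.15, pandas 2.3.3 and numpy 2.4.6 were also used.

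The members and lists were chosen with earlier results of these data known. Values in every mouse are given for subunits with an unadjusted p under 0.05 or groups without overlap, and for the 2 with the highest mean CPM in each class, and some subunits that the rule names are not reported here; list genes are named at an unadjusted p under 0.05. Gabrd, Gabra4, Grik2, Grm3 and Grm4 were added to these after their values were seen. Between mice of the same replicate number, deviations from the group means correlated across genes at 0.173, 0.120 and 0.209. RC replicate 1 and RN replicate 2 correlated at 0.156, and no source says what a number marks. The main fit did not pair the mice, and only the replicate block, an alternative, did so. The mice are taken to be separate animals. Alternatives were DESeq2, its size factors in edgeR, no filter, at least 10 counts in every mouse, the replicate block, marker scores as covariates (that of thalamic relay neurons chosen after seeing the data), other fold thresholds and each mouse left out in turn.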

Additional observations from a re-analysis of the deposited data

How the results depend on the processing

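Of the 43 tested subunits, 30 kept the sign of their log2 fold change in each fit that left out 1 mouse, and 13 kept it in each of the 15 alternative fits, among them Grik3, Gria1, Gria2 and, on the lower side, Grin2a alone. In these fits 73 of 645 estimates had the opposite sign, and 0 passed both thresholds. DESeq2, its size factors in edgeR, and both settings of the filter kept each count and class median within 1.5 times or 1 SD of the values reported. With the replicate block, which assumes pairs that no source states, 5 subunits were higher and 2 lower at an unadjusted p under 0.05 (6.63% and 6.97% of all tested genes). It changed no other call. With a fold change of at least 2 required as well, 0 were higher and 0 lower. With marker scores as covariates the lower count was 5 (neuron), 0 (hypothalamus), 7 (choroid plexus) and 0 (thalamic relay neuron), where 4.83%, 4.9%, 4.31% and 6.02% of all tested genes were lower. The higher count was 2, 2, 3 and 3 in the same order, where 6.02%, 2.79%, 5.01% and 3.9% of all tested genes were higher. When each mouse was left out in turn, the higher count ranged from 2 to 10 (3.7% to 6.72% of all tested genes). The lower count ranged from 0 to 4 (4.91% to 6.81%). The count without overlap ranged from 3 to 13 higher, against 12.2% to 15.4% of all tested genes. On the lower side it ranged from 2 to 7, against 11.6% to 15.6%. The NMDA median ranged from -0.15 to 0.094, the kainate median from 0.12 to 0.36 and the AMPA median from 0.037 to 0.25. The metabotropic median ranged from -0.22 to -0.0012, the GABA-A median from -0.12 to 0.20 and the glycine median from 0.043 to 0.26.

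The hypothalamus and choroid plexus scores did not overlap between the groups, so fits with them cannot separate score from group. Class medians moved with the covariates. With the choroid plexus score they were -0.052 (AMPA), -0.25 (NMDA) and -0.28 (GABA-A). With the hypothalamus score they were 0.16 (NMDA), 0.12 (kainate) and 0.14 (metabotropic glutamate). The thalamic relay neuron score gave 0.13 (NMDA) and 0.081 (metabotropic glutamate), and the neuron score -0.25 (NMDA) and -0.12 (GABA-A). Signs of single genes turned as follows. With the hypothalamus score the log2 fold changes were 0.19 (Grin2b), 0.15 (Grin2c), 0.14 (Grm3), 0.17 (Grm4), 0.56 (Gabra4) and 0.94 (Gabrd). With the relay neuron score they were -0.12 (Grik5), 0.15 (Gabra4) and 0.021 (Gabbr2). With the choroid plexus score they were -0.042 (Grin1), -0.24 (Gabbr1) and -0.047 (Glrb), and with the neuron score -0.0013 (Grin1) and -0.14 (Gabbr1). Leaving out each mouse gave -0.094 to 0.14 for Grik5, -0.51 to 0.15 for Gabra4 and -0.075 to 0.11 for Gabbr1. The cause of these changes was not tested. Depth limits Gabra6, Glra4 and Grin3b.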

Other observations

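GABA-A subunit genes lie in clusters in the mouse genome, and neighbours in a cluster did not all have the same order of mice. On chromosome 5, Gabrg1, Gabra2, Gabra4 and Gabrb1 had log2 fold changes of 0.23 (SE 0.216), -0.02 (SE 0.24), -0.28 (SE 0.272) and 0.01 (SE 0.164). In this cluster RC replicate 3 was the highest of the 6 mice for Gabra4 (167 CPM) but not for Gabrg1 (35.6), whose highest mouse was RN replicate 1 (46.2). On chromosome 7, Gabra5 and Gabrg3 were at 0.23 (SE 0.214) and 0.27 (SE 0.201).

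The X chromosome cluster held the widest contrast. Gabre and Gabrq had log2 fold changes of 1.78 (SE 0.298) and 1.35 (SE 0.368), and their neighbour Gabra3, a subunit of reticular thalamic neurons, had 0.07 (SE 0.18). In RC replicate 1, where Gabre and Gabrq were the highest of the RC mice (6.67 and 24.5 CPM), Gabra3 was at 109 CPM, between RC replicates 2 and 3. No test of these differences between neighbours was run.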
